A study of Mus musculus with 36 samples.

Results

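Myocytes from mouse hearts were profiled 7 days after a single fraction of 12 Gy and 7 days after a sham procedure, with 2 RNA-seq libraries in each group. These 4 libraries, of 36 in the series, were chosen by their labels alone. Both groups were wild-type C57Bl6J mice whose hearts were placed in a small animal microirradiator, and the irradiated group differed from the sham group by the dose. The labels give no age or sex, no number of animals behind a library and no method by which the myocytes were isolated. Each p-value therefore measures a spread between libraries, which may be technical. In the main fits that spread was estimated over all 12 myocyte libraries, or over all 36 libraries for the difference from endothelial cells. The other libraries used here are the myocytes at 6 hours and 28 days and the endothelial cells and fibroblasts at 7 days, with sham and 12 Gy groups of 2 libraries each.

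Ionising radiation breaks both strands of DNA, and the break-sensing kinase ATM stabilises the transcription factor p53. p53 then switches on genes that hold the cell cycle (Cdkn1a, encoding p21), that promote cell death (Bax), that modulate growth and stress signalling (Sesn2, Phlda3, Gdf15) and that shut p53 down again (Mdm2). Adult cardiomyocytes rarely divide and are known for their resistance to radiation, whereas endothelial cells and fibroblasts, which outnumber them in the heart, can divide.

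Because the genes that rose include many known p53 targets, promoters that hold a p53 response element are shown for those in which it was found. The element searched is the pair of half-sites bound by a p53 tetramer with no spacer, allowing up to 3 mismatches but none in the C and G at the core of each half-site. It reads the same on both strands. RefSeq promoters (GRCm38.p6, 250 bases before to 50 bases after a gene start) were found for 16 of the 17 genes that rose, and 4 of these 16 held the element, which is 5 of their 26 promoters (19.2%). Among all genes tested, 188 of 10489 with a promoter (1.79%) held it, in 1.44% of their promoters, and among the fallen genes 0 of 10. The element is in capitals, each sequence is the sense strand of its gene, and positions are counted from the gene start.
Cdkn1a, chr17:29090729-29091028, plus strand, element from -51 with 1 mismatch: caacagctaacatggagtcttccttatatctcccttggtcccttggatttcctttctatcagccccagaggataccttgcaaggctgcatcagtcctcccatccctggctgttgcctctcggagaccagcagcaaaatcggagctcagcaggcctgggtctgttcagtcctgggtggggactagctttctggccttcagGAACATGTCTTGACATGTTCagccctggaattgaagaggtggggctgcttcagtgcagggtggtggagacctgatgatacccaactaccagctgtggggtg
Gtse1, chr15:85859696-85859995, plus strand, element from -1 with 1 mismatch: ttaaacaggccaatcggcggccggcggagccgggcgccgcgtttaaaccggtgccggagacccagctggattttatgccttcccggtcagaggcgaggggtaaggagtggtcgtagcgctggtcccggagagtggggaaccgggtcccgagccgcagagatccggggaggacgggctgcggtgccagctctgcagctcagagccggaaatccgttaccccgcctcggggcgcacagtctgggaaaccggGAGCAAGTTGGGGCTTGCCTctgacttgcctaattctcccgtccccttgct
Zfp365, chr10:67912613-67912912, minus strand, element from -63 with 2 mismatches: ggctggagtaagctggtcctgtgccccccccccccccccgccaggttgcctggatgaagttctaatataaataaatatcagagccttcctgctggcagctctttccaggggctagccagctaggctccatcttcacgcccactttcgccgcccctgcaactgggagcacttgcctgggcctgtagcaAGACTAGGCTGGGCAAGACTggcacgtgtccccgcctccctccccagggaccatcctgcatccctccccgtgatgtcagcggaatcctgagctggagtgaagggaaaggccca
Aen, chr7:78895677-78895976, plus strand, element from 11 with 3 mismatches: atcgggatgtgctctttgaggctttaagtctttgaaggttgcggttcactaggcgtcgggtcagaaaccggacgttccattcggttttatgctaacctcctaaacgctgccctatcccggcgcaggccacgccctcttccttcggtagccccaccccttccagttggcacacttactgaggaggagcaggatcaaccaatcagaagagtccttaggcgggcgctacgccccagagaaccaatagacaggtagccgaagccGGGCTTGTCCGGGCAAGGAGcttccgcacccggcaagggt
The second promoter of Aen overlaps the one shown and holds the same element. A match describes the letters in these windows and does not show binding.

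The libraries carried cardiomyocyte markers at a high level. The 20 cardiomyocyte markers summed to 117440 and 134171 read counts scaled to library size (CPM) in the sham libraries and to 152103 and 116577 CPM in the irradiated libraries, with no marker at 0. Other cell types were also present: median endothelial marker levels were 23.5% and 16.3% of those in the endothelial libraries in the sham myocytes, and 20.9% and 21.7% in the irradiated ones. Fibroblast markers reached 12.8% and 7.95% of the fibroblast libraries in sham and 12.9% and 10.8% in irradiated myocytes. The pericyte and smooth muscle list summed to 3426 to 4225 CPM over the 4 libraries. Most of this was Des, at 2204 to 3375 CPM, which is also on the sarcomere list. The macrophage and monocyte list summed to 818 to 1241 CPM. The erythroid list summed to 2204 and 1220 CPM in sham and to 4373 and 1548 CPM after 12 Gy. The first irradiated library exceeded the highest of the other 8 myocyte libraries (2592 CPM). These transcripts are short (median 634.5 bases), and their median log2 ratio in that library fell from 1.21 to 0.64 with the length adjustment described below. The neutrophil list summed to 14.7 CPM or less and the T and NK cell list to 5.84 CPM or less. The part of these cells in the results was not tested. In bulk libraries such as these, fewer cells of a type and less RNA per cell cannot be told apart.

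The first irradiated library carried a strong relation between level and transcript length. Relative to the mean of the sham libraries, its median log2 ratio was 0.87 in the shortest and -0.88 in the longest of 10 equal groups of genes by transcript length, a Spearman correlation of -0.64 across 14115 genes. The second irradiated library had medians of 0.01 and -0.05 in the same groups. The mean transcript length weighted by reads was 2687 bases in the first irradiated library, 3581 bases in the second, and 3779 and 3645 bases in the sham libraries. Titin (Ttn) had the longest transcript tested, at 101674 bases. It stood at 3082 and 2899 CPM in sham, 1061 CPM in the first irradiated library and 2108 CPM in the second. It thus lay below sham also in the second library, where the relation was weak. With the length relation of each library removed, its log2 fold change moved from -0.92 to 0.48. The median length in the longest group was 7525.5 bases, so the adjusted value of Ttn lies at the far end of the curve and is uncertain.

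**Figure D1:**
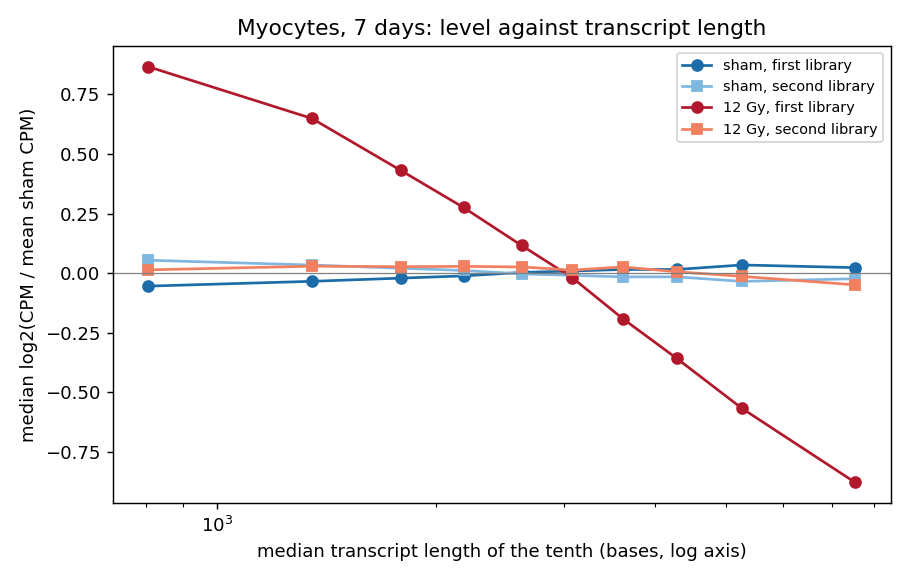
Median log2 ratio of each library to the sham mean (vertical axis) in 10 equal groups of genes by transcript length (horizontal log axis, bases); lines join the groups of a library. The first 12 Gy library runs from 0.87 to -0.88, while the other libraries stay near 0.

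Changes were therefore asked of each irradiated library on its own. The fit across the 12 myocyte libraries was run once without the second and once without the first irradiated library, and a gene had to pass (edgeR quasi-likelihood test, Benjamini-Hochberg adjusted p below 0.05) in the same direction in both. Of 14404 genes, 17 rose (0.118%) and 12 fell (0.0833%). These fits share the sham libraries and are not independent, and neither holds a spread between irradiated libraries of 7 days. With both irradiated libraries in a single fit, 9 genes were called higher (0.0638% of 14115) and 3 lower (0.0213%), and these 12 are among the 29. Without the second sham library that joint fit called 1 gene, Cdkn1a. With the first irradiated library as the only one, far more genes passed than with the second as the only one. The median log2 ratio of the first library was negative in every length group from 2841 bases upward. Passing with the first library was therefore the weaker condition, and the 29 genes rest mainly on the second. After length adjustment, the 29 genes had the 2 irradiated libraries still above, or still below, the 2 sham libraries. The length-adjusted joint fit called 18 genes higher (0.128%) and 3 lower, among them 16 of the 17 risen genes and 3 of the 12 fallen genes.

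The gene with the smallest p was Cdkn1a (whole gene at chr17:29090979-29100722, GRCm38, counted on transcript NM_007669). It encodes p21, the inhibitor of cyclin-dependent kinases that holds cells before DNA synthesis. Its level was 61.3 and 72.8 CPM in the sham libraries and 305 and 341 CPM in the irradiated libraries. The groups lie far apart, and the irradiated libraries differ little from each other. The log2 fold change was 2.27 ± 0.17 (SE from the fit of 12 myocyte libraries, n = 2 against 2), a 4.81-fold rise (edgeR adjusted p = 0.00042). Gtse1, which binds microtubules and p53 and acts around the G2 phase, stood at 0.77 and 0.22 CPM (8 and 3 reads) in sham and at 7.38 and 10.1 CPM (115 and 137 reads) after irradiation. Its log2 fold change of 4.20 ± 0.48 (edgeR adjusted p = 0.0095) rests on few sham reads.

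Genes that promote cell death and a gene that opposes it rose. Bax, which permeabilises the outer mitochondrial membrane, went from 21.6 and 23.9 CPM to 147 and 62.8 CPM, a log2 fold change of 2.20 ± 0.32 (edgeR adjusted p = 0.029). Its transcript has 869 bases, and after length adjustment the log2 ratios were 2.02 in the first and 1.46 in the second irradiated library. Bcl2l1, whose main product Bcl-xL opposes Bax, went from 57.8 and 61.4 CPM to 94.4 and 121 CPM. That change of 0.86 ± 0.15 on the log2 scale passed with each irradiated library alone and not in the joint fit (edgeR adjusted p = 0.11). The death receptor Eda2r rose from 3.92 and 3.999 CPM to 10.6 and 28.6 CPM, with the second irradiated library well above the first. Aen, a nuclease of apoptosis, rose less and evenly, from 25.4 and 24.2 CPM to 40.7 and 45.2 CPM. Eda2r and Aen also missed the joint fit (edgeR adjusted p = 0.088 and 0.10).

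Regulators of stress and growth signalling formed the next group. Phlda3, a small protein that competes with the kinase Akt for membrane lipids, stood at 24.98 and 16.7 CPM in sham and at 120 and 72.8 CPM after 12 Gy (log2 fold change 2.21 ± 0.27, edgeR adjusted p = 0.013). Sesn2, an inhibitor of mTORC1 signalling, measured 4.59 and 4.67 CPM in sham and 12.3 and 18.6 CPM after 12 Gy (1.74 ± 0.28 on the log2 scale). Zmat3, an RNA-binding zinc finger protein, had the smallest change of the 17 (0.76 ± 0.20 on the log2 scale), from 16.8 and 13.7 CPM to 20.8 and 30.8 CPM. With 7782 bases it is long, and its length-adjusted log2 ratios were 1.302 and 1.076, against 0.45 and 1.01 before. Sesn2 and Zmat3 missed the joint fit (edgeR adjusted p = 0.069 and 0.35). Zfp365, a zinc finger gene of the response to DNA damage, moved from 2.11 and 1.56 CPM to 5.84 and 9.76 CPM (log2 fold change 2.10 ± 0.30, edgeR adjusted p = 0.029).

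Secreted factors and enzymes also rose. Gdf15, a stress hormone of the TGF-beta family, was at 6.41 and 5.04 CPM in sham and at 46.1 and 42.0 CPM in the irradiated libraries. This is a 7.73-fold rise with close replicates (log2 fold change 2.95 ± 0.27, edgeR adjusted p = 0.0011). Gas6, the ligand of the receptor kinases Tyro3, Axl and Mer, stood at 252 and 206 CPM in sham and at 572 and 433 CPM after 12 Gy (1.14 ± 0.17, edgeR adjusted p = 0.036). Ces2e, a carboxylesterase, had the steepest rise after Gtse1, from 2.78 and 2.00 CPM to 31.9 and 23.05 CPM (3.54 ± 0.31, edgeR adjusted p = 0.0011). It belongs to a cluster of near copies, and how reads shared between copies were counted is not given in the sources used here. Ephx1, the microsomal epoxide hydrolase that detoxifies reactive epoxides, went from 93.4 and 75.9 CPM to 295 and 197 CPM (1.54 ± 0.21, edgeR adjusted p = 0.028).

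The remaining 3 genes that rose were low. Cpt1c, the neuronal form of carnitine palmitoyltransferase, went from 4.21 and 2.22 CPM to 9.75 and 9.91 CPM. Btbd19 went from 3.25 and 3.04 CPM to 8.34 and 8.81 CPM, and Celf5, an RNA-binding protein of the CELF family, from 0.19 and 0.30 CPM (2 and 4 reads) to 1.09 and 2.20 CPM (17 and 30 reads). None of the 3 passed in the joint fit, with edgeR adjusted p of 0.069, 0.069 and 0.23. Among the 29 changed genes, Bcl2l1, Gas6, Zmat3 and Mybphl overlap another tested gene in the RefSeq annotation, and counting by strand is not given in the sources used here.

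**Figure D2:**
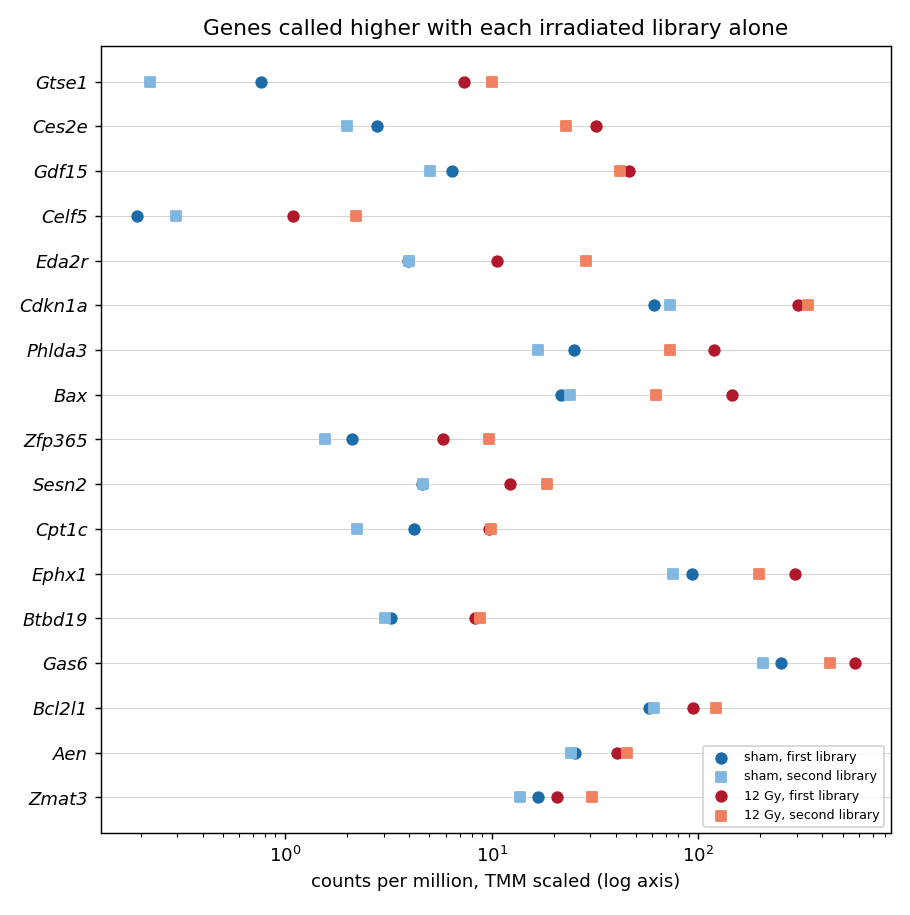
Level of each of the 17 risen genes (rows) in the 4 libraries of 7 days, in TMM-scaled CPM on a log axis. In each row both 12 Gy points (reds) lie to the right of both sham points (blues).

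The whole list of 45 p53 target genes, chosen with earlier results of these data known, moved upward in part. Of 44 members tested, 12 rose with each irradiated library alone and 7 were called higher in the joint fit, with no member called lower. Both irradiated libraries lay above both sham libraries, with and without length adjustment, for 29 members, against 12.6% of all genes tested, and below for 0, against 9.7%. The median log2 fold change of the 44 was 0.62, and 0.02 over all genes. It was similar in the 2 irradiated libraries after length adjustment, at 0.73 and 0.68. Core targets were among those that did not pass. Mdm2, the ubiquitin ligase that ends p53 activity, stood at 49.8 and 58.1 CPM in sham and at 59.1 and 81.2 CPM after 12 Gy, a log2 fold change of 0.38 ± 0.17 (edgeR adjusted p = 0.35). Its irradiated libraries lay above the sham libraries, by little in the first. Ccng1, encoding cyclin G1, stood at 974 and 1006 CPM in sham and at 714 and 1113 CPM after 12 Gy, so the irradiated libraries lay on both sides of sham.

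The same genes were measured in the endothelial cells and fibroblasts whose RNA the myocyte libraries also held. To set a scale, the level of each risen gene in the irradiated endothelial and fibroblast libraries was multiplied by the marker share of that cell type in each myocyte library, and both products were added. This assumes that such cells carry the same RNA in both preparations, and it counts under each type any RNA that the endothelial and fibroblast libraries share. The sum was 33.4% to 269% of the level measured in the irradiated myocyte libraries over the 17 genes, with medians of 76.7% in the first and 70.5% in the second library. Computed in the same way, with sham endothelial and fibroblast libraries for sham, the rise from sham to 12 Gy was 22.1% to 159% of the measured rise, with a median of 61.2%. For Cdkn1a it was 60.7%. It was below 50% for 3 genes, Bax at 44.6%, Gtse1 at 47.4% and Bcl2l1 at 22.1%, and above 100% for 6. These values carry no length adjustment, and the rise averages both irradiated libraries, so the length relation of the first enters them. For the short Bax the sum was 33.4% of the measured level in the first irradiated library and 78.4% in the second. For the long Zmat3 it was 101% and 63.4%. Which part of each rise belongs to cardiomyocytes was not tested.

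The 12 genes that fell were led, in the joint fit, by Fras1, Camk1d and Sbk2. Fras1, an extracellular matrix protein of basement membranes, stood at 4.12 and 4.30 CPM (43 and 58 reads) in sham and at 0.19 and 0.59 CPM (3 and 8 reads) after 12 Gy. Its log2 fold change was -3.44 ± 0.45 (edgeR adjusted p = 0.021), and -2.82 after length adjustment of its 15848 bases. Camk1d, a calcium- and calmodulin-dependent kinase, stood at 14.4 and 14.7 CPM in sham and at 3.98 and 5.36 CPM after 12 Gy (-1.64 ± 0.23, edgeR adjusted p = 0.029). Sbk2, a kinase gene beside its relative Sbk3 on chromosome 7, went from 26.5 and 36.7 CPM to 9.94 and 11.3 CPM (-1.58 ± 0.22, edgeR adjusted p = 0.028). These 3 were also called after length adjustment, with edgeR adjusted p of 0.011, 0.046 and 0.011.

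The other 9 fallen genes share a profile over the 4 libraries. Nppa, which encodes atrial natriuretic peptide, stood at 1967 and 3025 CPM in sham, 1430 CPM in the first and 175 CPM in the second irradiated library. Mybphl, a myosin-binding protein of the atria and conduction system, stood at 45.8 and 92.4 CPM in sham and at 24.4 and 6.83 CPM after 12 Gy. Fgf12, a partner of voltage-gated sodium channels, measured 12.8 and 21.6 CPM in sham and 4.81 and 1.101 CPM after 12 Gy. In each the second sham library was highest and the second irradiated library lowest. Sbk3, Tmem163, Cilp2, Dkk3, Slc17a7 and Podn followed the same order, second sham, first sham, first irradiated, second irradiated library. That order held for 9 of the 12 fallen genes, against 8.63% of the 2166 genes (15.3% of those tested) whose irradiated libraries both lay below sham before length adjustment. None of these 9 passed in the joint fit, where their edgeR adjusted p lay between 0.14 and 0.35. The comparison of orders was in part set in advance. The 12 fallen genes had to pass with the second irradiated library alone, which favours a low level there. Among the 2166 genes the length relation lowers long genes in the first irradiated library, which works against this order.

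Atrial markers had this order too. The atrial list summed to 3081 and 5310 CPM in sham and to 2326 and 377 CPM after 12 Gy, and between 858 and 2523 CPM in the 8 myocyte libraries of the other times. Before and after length adjustment, all 7 markers tested (the light chains Myl7 and Myl4, the calcium pump regulator Sln, Nppa, Bmp10, Kcnj3 and Tbx5) lay lower in both irradiated than in both sham libraries, against 9.7% of all genes, and 5 of the 7 had the order above. Their median log2 ratio was -1.48 in the first and -3.38 in the second irradiated library after length adjustment. In the joint fit 0 of 7 was called, with an edgeR adjusted p of 0.35 for each. Bmp10, a growth factor made in the right atrium, shows how uneven sham was, with 2.87 CPM in the first and 94.8 CPM in the second sham library. For 9 of the 12 fallen genes both sham libraries of 7 days lay above all 8 myocyte libraries of 6 hours and 28 days, while for 2 both irradiated libraries lay below all 8. The 2 were Camk1d and Fras1. The part of atrial tissue in each library was not measured in another way, and its share in the fall of these genes was not tested.

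**Figure D3:**
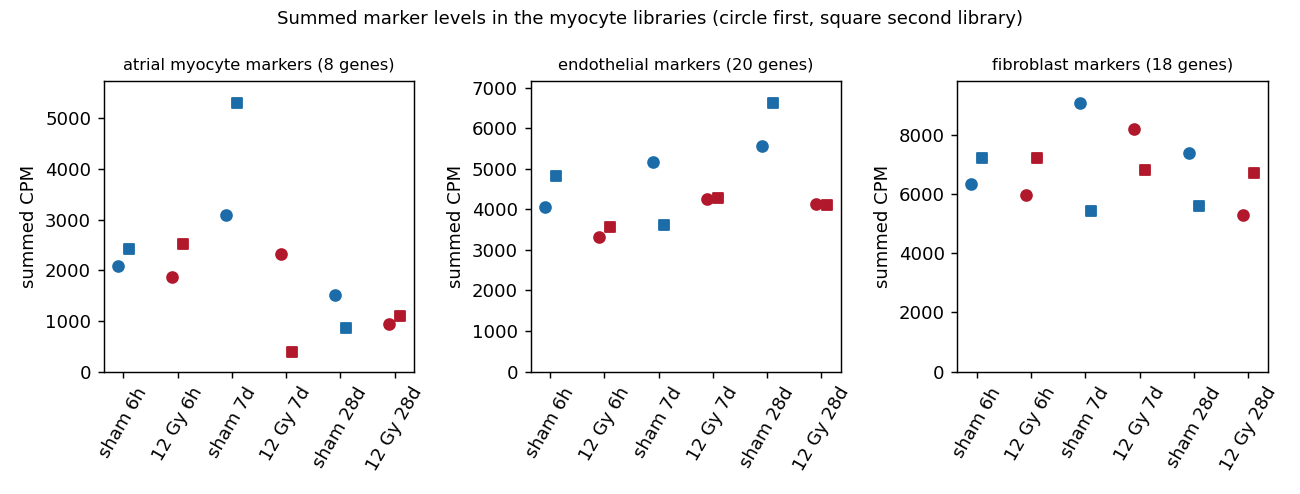
Summed TMM-scaled CPM of the atrial, endothelial and fibroblast marker lists (panels) in the 12 myocyte libraries by group, sham in blue and 12 Gy in red. The 4 libraries of 7 days span 377 to 5310 for atrial markers, more than the other 8 libraries (858 to 2523).

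Of the other gene lists, several moved in the first irradiated library in the way their length does. Respiratory chain genes (48 tested, median length 765 bases) had a median log2 ratio of 0.90 in the first irradiated library, 0.26 after length adjustment, and 0.05 in the second. Cytosolic ribosomal protein genes (36 tested, 740 bases) had 1.077, 0.36 and -0.04. Long genes did the opposite: the dystrophin and costamere list (21 tested, 5770 bases) stood at -0.83 in the first library, 0.07 after adjustment and 0.08 in the second. In the joint fit no member of these 3 lists was called in either direction. With and without adjustment, both irradiated libraries lay above sham for 1 respiratory, 4 ribosomal and 1 costamere gene, against 12.6% of all genes, and below for 0 respiratory, 0 ribosomal and 2 costamere genes, against 9.7%. The respiratory gene above sham was Cox8b, with 590.5 and 696 CPM in sham and 1759 and 715 CPM after 12 Gy.

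No gene of the sarcomere, calcium handling or potassium channel lists was called in the joint fit. The 30 sarcomere genes had median log2 ratios of 0.14 and -0.01 in the 2 irradiated libraries after length adjustment, and the 24 calcium handling genes 0.05 and 0.00. Both irradiated libraries lay below both sham libraries, with and without length adjustment, for 2 of the 30 sarcomere, 5 of the 24 calcium handling and 4 of the 22 potassium channel genes, against 9.7% of all genes. They lay above for 1, 0 and 0, against 12.6%. The lists overlap with the atrial list. The sarcomere genes below sham were the atrial markers Myl4 and Myl7. The atrial markers Sln and Kcnj3 were among the calcium handling and potassium channel genes below. Cacna1h, a T-type calcium channel, was among those below, at 35.7 and 43.8 CPM in sham and 16.8 and 23.6 CPM after 12 Gy (log2 fold change -0.98 ± 0.21, edgeR adjusted p = 0.23). Myh6, the main myosin heavy chain of the mouse heart, stood at 45540.5 and 49836 CPM in sham and at 37181 and 42282 CPM after 12 Gy, lower in both irradiated libraries before length adjustment and not after it (log2 fold change -0.26 ± 0.20, edgeR adjusted p = 0.47). Atp2a2, the calcium pump of the sarcoplasmic reticulum, measured 20424 and 23103 CPM in sham and 11984 and 22406 CPM after 12 Gy. Pln, its inhibitor, ranged from 4369 to 4839 CPM over the 4 libraries with the groups overlapping. Gja1, which encodes the ventricular gap junction protein connexin 43, stood at 378 and 367 CPM in sham and at 344 and 334 CPM after 12 Gy, also lower in both irradiated libraries before length adjustment and not after it (log2 fold change -0.13 ± 0.14, edgeR adjusted p = 0.59).

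Proliferation genes were low throughout. Of 42 cell cycle genes tested, 14 lay below sham in both irradiated libraries with and without length adjustment (9.7% of all genes did) and 1 lay above (12.6%), and no member was called (median log2 fold change -0.23). Mki67, a protein of dividing cells, stood at 9.76 and 5.92 CPM in sham and at 2.25 and 3.30 CPM after 12 Gy (-1.49 ± 0.33, edgeR adjusted p = 0.23). Top2a, the topoisomerase of chromosome segregation, stood at 9.28 and 4.30 CPM in sham and at 2.05 and 2.57 CPM after 12 Gy. For both genes the groups did not overlap, and the sham libraries differed from each other by more than the lower of them differed from the higher irradiated library.

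Immediate early and inflammatory genes leaned lower without a call. Of 22 immediate early genes 8 lay below sham in both irradiated libraries and 0 above (9.7% and 12.6% of all genes, with and without length adjustment). Zfp36, which degrades cytokine mRNA, had the clearest values, at 353 and 356 CPM in sham and 239 and 247 CPM after 12 Gy (-0.55 ± 0.14, edgeR adjusted p = 0.35). Of 26 inflammation genes 8 lay below and 2 above. The chemokine Cxcl12 was among those below, at 270 and 161 CPM in sham and at 77.2 and 124 CPM after 12 Gy. Another chemokine, Ccl2, went the other way, from 7.66 and 5.41 CPM in sham to 12.8 and 7.78 CPM after 12 Gy. Of 40 interferon genes 8 lay below and 3 above, and Isg15, an interferon-induced ubiquitin-like protein, overlapped between groups (7.94 and 5.26 CPM against 17.3 and 6.68 CPM). Of 8 mesothelial markers tested 6 lay above, at low levels: Msln stood at 6.41 and 3.78 CPM in sham and at 14.2 and 8.07 CPM after 12 Gy. Of 20 genes of antioxidant defence 4 lay above and 0 below. Among them Nqo1, a quinone reductase, stood at 35.8 and 39.4 CPM in sham and at 61.6 and 54.4 CPM after 12 Gy (0.63 ± 0.15, edgeR adjusted p = 0.27). No member of these 5 lists was called in the joint fit.

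The clock activator Arntl lay at 5.17 and 5.26 CPM in sham and at 1.80 and 2.94 CPM after 12 Gy (-1.15 ± 0.26, edgeR adjusted p = 0.24), and the labels give no hour of tissue collection. Of 24 fibrillar matrix genes 2 lay above sham and 1 below with and without length adjustment, no larger a share than the 12.6% and 9.7% of all genes. The gelatinase Mmp2 was one of those above, with 143 and 73.1 CPM in sham and 205 and 193 CPM after 12 Gy. Collagen Col1a1 overlapped between groups, at 583 and 267 CPM against 407 and 474 CPM.

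**Figure D4:**
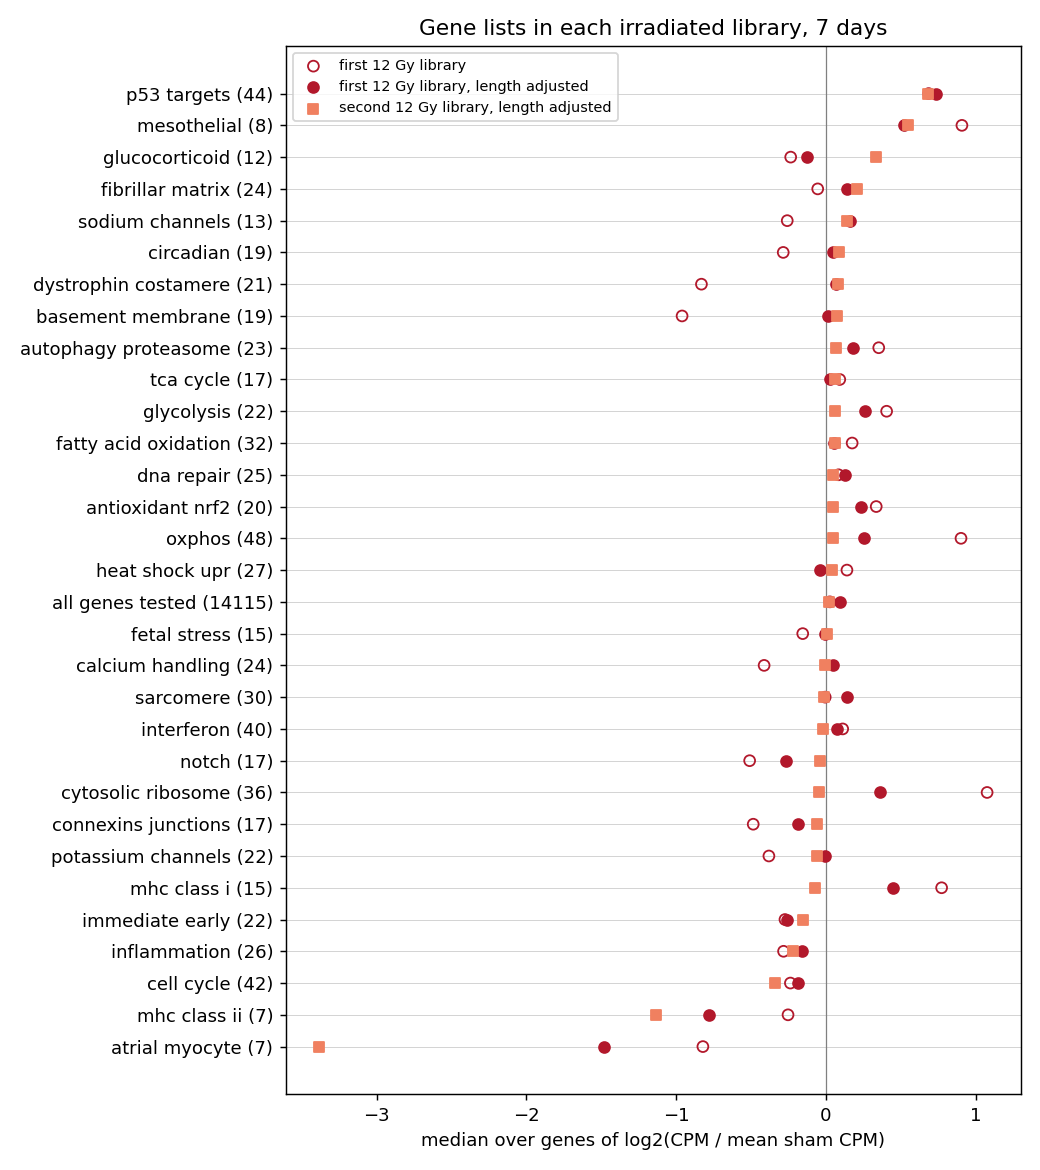
Median over the genes of each list (rows, number of genes tested in brackets) of the log2 ratio to the sham mean in the first 12 Gy library before (open) and after (filled) length adjustment and in the second 12 Gy library after adjustment (squares). The p53 list stands at 0.73 and 0.68 after adjustment, the atrial list at -1.48 and -3.38, and all genes near 0.

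Across time, 6 hours had the most genes called higher in myocytes and 28 days the fewest. Such counts do not measure the size of the changes. For the 44 p53 targets the median log2 fold change was 0.62 both for 7 and for 28 days, against 1.53 for 6 hours. At 6 hours 46 genes were called higher (0.326% of 14115), 25 of the 44 p53 targets among them, and at 28 days 4 were called higher (0.0283%), with 3 p53 targets. A test of the difference between 7 days and 6 hours called 0 genes in edgeR (525 at an unadjusted p below 0.05), and DESeq2 called 1. Between 7 and 28 days edgeR called 0 genes (650 unadjusted), and DESeq2 called 11. Without the first irradiated library of 7 days edgeR called 2 genes against 6 hours and 3 against 28 days, and without the second, 4713 and 4816.

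Levels over time are given for Cdkn1a, among the smallest p-values against 28 days, and for Gdf15 and Mdm2 from the set list. Cdkn1a stood between 471 and 530 CPM in irradiated myocytes at 6 hours, 305 and 341 CPM at 7 days, and between 318 and 342 CPM at 28 days. Its sham level moved as well, from 104 to 122 CPM at 6 hours, over 61.3 and 72.8 CPM at 7 days, to 172 and 201 CPM at 28 days. The irradiated level at 28 days was thus near that at 7 days, while the log2 fold change was 0.82 ± 0.16 there against 2.27 ± 0.17 (difference 1.44 ± 0.23, edgeR adjusted p = 0.37). Gdf15 stayed high, at 46.4 and 71.3 CPM after 6 hours and 43.6 and 49.6 CPM after 28 days, against 6.10 to 8.61 CPM in the sham libraries of those times. Mdm2 had reached 128 and 141 CPM in irradiated myocytes at 6 hours, a log2 fold change of 1.35 ± 0.17 (edgeR adjusted p = 0.0044). Its difference from 7 days, -0.97 ± 0.23, did not pass (edgeR adjusted p = 0.83).

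For 16 of the 17 risen genes both irradiated libraries of 7 days lay above all 6 sham libraries of myocytes. The exception was Bcl2l1, whose sham libraries stood at 99.9 and 110 CPM at 28 days, within the range of the irradiated libraries of 7 days. For 5 of the 17, among them Cdkn1a and Bax, both sham libraries of 7 days lay below the other 4 sham libraries. Camk1d, which fell at 7 days, ranged from 7.37 to 10.99 CPM over the 8 libraries of the other times, between its 7-day groups (difference from 28 days -1.84 ± 0.32, edgeR adjusted p = 0.38).

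**Figure D5:**
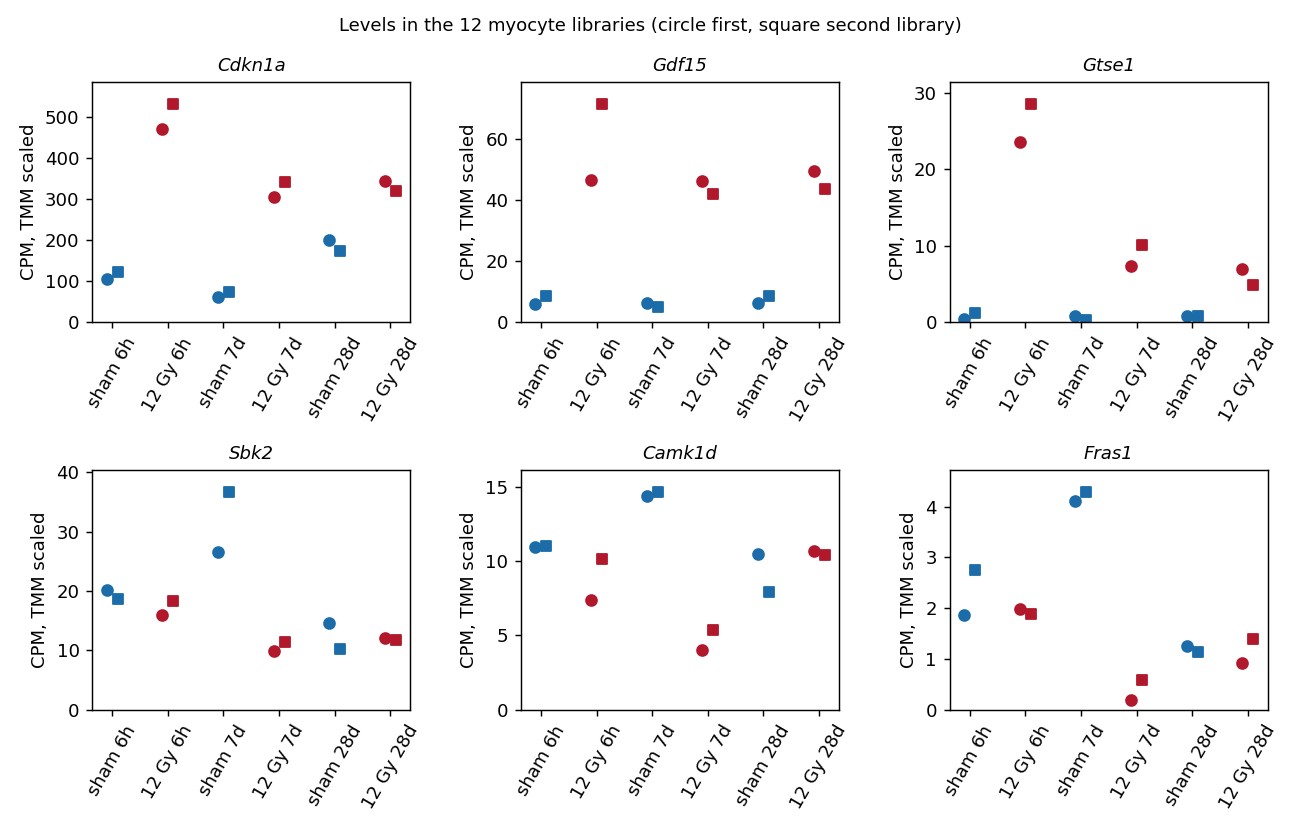
Level of 3 risen and 3 fallen genes (panels) in the 12 myocyte libraries, in TMM-scaled CPM on linear axes from 0, sham in blue and 12 Gy in red. Cdkn1a stays at 305 to 342 after 12 Gy at 7 and 28 days, while its sham libraries range from 61.3 to 201.

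Against endothelial cells at the same time, the response of the myocyte libraries was smaller for a set of p53 targets. A fit of all 36 libraries found 21 genes, 0.129% of 16234, whose effect of 12 Gy differed between the cell types, 20 of them lower in myocytes. Left out in turn, single libraries moved this count to between 8 and 5941, the last without the second irradiated myocyte library, when the library with the length relation stood alone. In endothelial cells 32 of the 44 p53 targets were called higher (0.925% of all genes), and 7 of the 44 were among the 21. With length adjustment 26 genes differed, 5 of them higher in myocytes. The differences that follow are without it. Ccng1 had the smallest p: its log2 fold change was 1.86 ± 0.09 in endothelial cells and -0.12 ± 0.20 in myocytes, a difference of -1.97 ± 0.20 (edgeR adjusted p = 5.6e-06). Aen rose in both, by 2.00 ± 0.11 and 0.79 ± 0.14 (difference -1.21 ± 0.14, edgeR adjusted p = 4.6e-05). Mdm2 (difference -0.97 ± 0.18), Sesn2 (-1.40 ± 0.27), Zfp365 (-1.60 ± 0.32) and Zmat3 (-1.11 ± 0.22) also differed, with edgeR adjusted p from 0.017 to 0.034. Cdkn1a did not pass this test, with 1.47 in endothelial cells and 2.27 in myocytes (edgeR adjusted p = 0.15).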

How the data were processed

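RNA-seq libraries of myocytes, endothelial cells and fibroblasts were used. The authors mapped reads to the mouse build GRCm38, also named mm10, per the submitters' processing notes; which aligner and counter were run is not given in the sources used here. Per the labels, libraries came from total RNA with a SMARTER mRNA-seq kit. Each deposited file holds read counts per RefSeq transcript (33068 transcripts, 24061 gene names). A further deposited column is headed TPM, but its values equal RPKM (largest difference 1.8e-12). For the 4914 names with several transcripts, the one with most reads over the 36 libraries was kept. In 42 genes counts equalled those of another gene in all libraries. Another 30 read columns in the files were not used. The 4 libraries of 7 days held 10.4 and 14.1 (sham) and 18.6 and 13.8 (12 Gy) M reads on the kept transcripts. No mitochondrial or ribosomal RNA genes are listed in these files.

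Group means of the 12 myocyte libraries were estimated in edgeR 4.0.16 under R 4.3.3. Genes passed filterByExpr at a minimum count of 10 and a minimum total of 15, sizes were TMM scaled, and glmQLFTest gave the tests, with Benjamini-Hochberg adjusted p-values and a threshold of 0.05. Differences from endothelial cells used all 36 libraries. The common biological coefficient of variation was 0.172, and 0.137 with length adjustment. That adjustment subtracted, per library, a loess curve (span 0.5) of log2 CPM against log2 transcript length. Alternatives were RLE factors, other filters, DESeq2 1.42.0, limma 3.58.1 on log2(RPKM + 1), summed transcripts, a replicate block and leaving out each library. Members, lists and tests were chosen with earlier results of these data known. Genes were named by rule: those called, up to 20 passing with each irradiated library, up to 4 per list on 1 side of sham, those of smallest p in each difference test, and a set list. Celf5, Zmat3, Dkk3, Cilp2, Tmem163 and Mybphl were added after their values were seen. The comparison with scaled endothelial and fibroblast levels (Python 3.11.15) and the order of the libraries were also chosen after seeing the data.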

Additional observations from a re-analysis of the deposited data

Results flagged for a closer look

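The effect of 12 Gy at 7 days differed between myocytes and endothelial cells in a test of the difference itself for 21 genes, which is what marks these results for a closer look. Of the genes named, all had a lower log2 fold change in myocytes. The differences, myocytes minus endothelial cells, were -1.97 for Ccng1, -1.21 for Aen, -0.97 for Mdm2, -1.40 for Sesn2, -1.11 for Zmat3 and -1.60 for Zfp365, which are p53 targets. They were -1.02 for Aldh4a1, a mitochondrial enzyme of proline breakdown, -1.99 for Mreg and -1.25 for the clock repressor Bhlhe41. For these last 3 the log2 fold changes were 0.13, -0.01 and 0.16 in myocytes and 1.16, 1.98 and 1.42 in endothelial cells. The differences of the fallen genes Fras1 and Podn were -4.09 and -1.30. None of these differences was length adjusted, and for Ccng1 the irradiated myocyte libraries lay on both sides of sham. The 7-day groups of 2 libraries are too small for a test of single libraries that stand apart.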

How the results depend on the processing

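The 29 genes that changed with each irradiated library kept their direction in all 491 values under the alternatives run. Against the joint fit, 355 values were on the same side of the threshold, 44 no longer past it and 92 newly past it. These genes were chosen for the same direction with each irradiated library, and the alternatives include the 2 fits that chose them. The kept direction was thus largely set in advance, and the values newly past the threshold include those of these 2 fits. The 12 calls of the joint fit became 600 with no low-count filter beyond 1 read, 21 with length adjustment, 71 with DESeq2, 6 with the replicate block, 1441 with all 36 libraries in 1 fit and 0 with only the 4 libraries compared. Leaving out 1 library gave 1 (without the second sham library) to 6723 (without the second irradiated library). The 29 became 127 with no filter and 16 with limma on log2(RPKM + 1), and 42 to 58 without either sham library. The 0 calls for the difference from 6 hours became 37 with no filter, 1 with DESeq2, 2 with limma on log2(RPKM + 1) and 17 with all 36 libraries, and 0 to 4713 without single libraries. The 0 calls for the difference from 28 days became 64 with no filter, 11 with DESeq2, 17 with all 36 libraries, and 0 to 4816 without single libraries. The 21 calls for the difference from endothelial cells became 266 with no filter, 35 with a mean of at least 5 CPM, 161 with DESeq2, 85 and 56 with limma on log2(RPKM + 1) and log2(RPKM + 0.1), 0 with the libraries compared alone, and 8 to 5941 without single libraries. The cause of these shifts was not tested. The replicate numbers are not shown to pair the libraries (correlation of the deviations of first libraries -0.02), so the replicate block is given only here; with length adjustment it called 16 genes. With 2 libraries in a group, and 1 of them carrying the length relation, small changes were not detectable.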
